A study of Rattus norvegicus with 20 samples.

Results

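Bicdl1, Adamtsl4, Nphs1, Fhod3, Ephb3 and Mpzl2 are 6 genes of the rat choroid plexus, the secretory tissue of the brain ventricles. They ranked among the first for a difference in the obese minus lean contrast between an untreated and an injected cohort. None of the 6 had an adjusted p under 0.05 for this difference in limma. They were taken from the 32883 Ensembl genes measured by RNA sequencing, of which 15406 had a mean of at least 0.1 TPM (transcripts per 1000000, a level per transcript length) over the 20 rats and were tested. The rats were female Zucker rats of 16 weeks, with 1 library of choroid plexus (from the lateral ventricles and the fourth) per rat. Lean rats carried 1 copy of the fa allele (+/fa) and obese rats 2 copies (fa/fa), fa being a mutation of the leptin receptor that makes the animals overeat.

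The untreated cohort held 6 lean and 6 obese rats, and the injected cohort held 4 lean rats given the vehicle (lean + VEH) and 4 obese rats given testosterone (obese + TT). Sesame oil was injected as the vehicle, with 1 mg of testosterone propionate added for the obese + TT rats, 2 times a week for 4 weeks. Testosterone was given to obese rats alone, so in the injected cohort the effects of obesity and of the hormone cannot be told apart, and a comparison of one cohort with the other also holds the injections and everything else that differed between the cohorts. The cohorts were used to ask what obesity, and then obesity with added androgen, does to the tissue that makes the cerebrospinal fluid.

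The genes were chosen by the readout itself. They had some of the smallest p-values for the difference between the obese minus lean contrast of the injected cohort and that of the untreated cohort, in a limma fit of log2(TPM + 0.1). They held places 1, 2, 4, 9, 10 and 12 in that order, and the places between them belonged to 4 genes without a symbol in the sources used here and to LOC103693375 and AY172581.24. The last gene inside, Mpzl2, had a difference of 0.78 on the log2 scale, and Rrh, the next outside, had -1.61, and both had an adjusted p of 0.168. None of the 15406 genes, 0% of those tested, had an adjusted p under 0.05 for this difference in limma with Benjamini-Hochberg adjustment, where the smallest adjusted p was 0.0679 and 1288 genes (8.36%) had an unadjusted p under 0.05. Within each cohort the share of genes called by limma on log2(TPM + 0.1) was 0% as well. The study's own DESeq2 comparisons, which used read counts, did call genes between obese and lean rats in both cohorts. Because every contrast among the 4 groups enters the rule or shares its libraries, the values of the 6 genes are given as a description, without a test. By sign, the working description of the genes as changing in contrary directions held for 5 of them. Opposite signs were found in 51% of the genes tested in both cohorts. Among the 5, the injected contrasts of Ephb3 (-0.37, SE 0.21) and Mpzl2 (0.14, SE 0.08) were small for their SE. In Nphs1 both contrasts were negative and differed in size.

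The choroid plexus is a sheet of ciliated secretory epithelium folded around a stroma with leaky capillaries, and it makes most of the cerebrospinal fluid. The 6 genes do not belong to one pathway. Bicdl1 encodes an adaptor that couples vesicles to the dynein motor, and Fhod3 a formin, which assembles actin filaments and is best known from the sarcomeres of heart muscle. Adamtsl4 encodes a secreted ADAMTS-like protein without protease activity that associates with fibrillin microfibrils. The other 3 encode proteins of the cell surface: Nphs1 encodes nephrin, the adhesion protein of the slit diaphragm of kidney podocytes, Ephb3 a receptor tyrosine kinase for ephrins of the B class, and Mpzl2 an adhesion protein of epithelia from the immunoglobulin superfamily.

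RefSeq promoters were at hand for 4 of the 6 genes (Adamtsl4, Nphs1, Fhod3 and Ephb3). The 250 bases upstream of the start are shown for the 3 that were highest in the lean + VEH rats, from the GRCr8 assembly, read 5′ to 3′ on the strand of the gene. Capitals mark GGGCGG or its reverse complement CCGCCC, the letters of a GC box. The sequences stand for identity only, since the files hold no measurement at the promoters.
Adamtsl4 (chr2:185935797-185936046, minus strand): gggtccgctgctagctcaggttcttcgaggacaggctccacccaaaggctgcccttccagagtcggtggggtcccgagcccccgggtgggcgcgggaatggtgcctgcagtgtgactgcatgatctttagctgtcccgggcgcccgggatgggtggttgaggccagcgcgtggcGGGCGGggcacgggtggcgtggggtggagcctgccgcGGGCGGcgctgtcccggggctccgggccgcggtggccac
Nphs1 (chr1:94848011-94848260, plus strand): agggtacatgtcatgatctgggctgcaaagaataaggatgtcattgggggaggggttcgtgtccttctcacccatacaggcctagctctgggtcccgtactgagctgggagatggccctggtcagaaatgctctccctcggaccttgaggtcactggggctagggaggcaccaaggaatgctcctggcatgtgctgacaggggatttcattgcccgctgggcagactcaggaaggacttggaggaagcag
Ephb3 (chr11:93363776-93364025, minus strand): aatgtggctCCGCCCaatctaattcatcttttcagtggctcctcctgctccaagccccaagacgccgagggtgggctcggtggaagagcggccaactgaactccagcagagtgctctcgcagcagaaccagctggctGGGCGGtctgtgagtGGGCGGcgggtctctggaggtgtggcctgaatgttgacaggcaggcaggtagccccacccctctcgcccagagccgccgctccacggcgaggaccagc

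On either strand, GGGCGG was found in 3 of the 4 promoters (Adamtsl4, Fhod3 and Ephb3) and in 30.5% of the 33469 rat promoters searched over the same length. The letters CCAAT were present in the Nphs1 and Ephb3 windows and in 34% of all promoters. AGAACA, the letters of a half-site for steroid receptors such as the androgen receptor, were in none of the 4 windows and in 17.5% of all promoters, and neither TATAAA (12.9%) nor the E-box CACGTG (5.59%) was found in the 4. The median GC content over all promoters was 51.2%, against 73.2% for Adamtsl4, 64.4% for Ephb3 and 57.2% for Nphs1. These are matches of letters in a window of 250 bases and show no binding.

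Bicdl1, the dynein adaptor, had the smallest p of the difference. Its level was 12.55 to 19.53 TPM in the 6 lean rats (median 14.9) and 19.15 to 27.51 TPM in the 6 obese rats (median 23.7). In the injected cohort the 4 lean + VEH rats had 19.17, 21.02, 17.49 and 18.95 TPM, and the 4 obese + TT rats 15.48, 13.35, 14.58 and 10.11 TPM. Obese rats thus lay above lean rats in the untreated cohort, but for 1 lean rat above the lowest obese rat, while all obese + TT rats lay below all lean + VEH rats. On the log2(TPM + 0.1) scale the obese minus lean difference was 0.62 (SE 0.12) without treatment and -0.53 (SE 0.13) in the injected cohort, which leaves a difference of -1.15 (SE 0.19) between the contrasts. Ordered by their means, the groups were obese + TT (13.4 TPM), lean (15.2 TPM), lean + VEH (19.2 TPM) and obese (23.5 TPM), and each overlapped its neighbour in that order. In libraries of whole tissue, fewer cells of a type and less RNA per cell cannot be told apart.

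For Fhod3, the formin, the signs were the other way round. The lean rats had 7.32 to 9.8 TPM (median 8.96) and the obese rats 4.85 to 7.16 TPM (median 6.5), so that the highest obese rat was just below the lowest lean rat. The lean + VEH rats had 9.73, 9.57, 10.22 and 9.69 TPM, and the obese + TT rats had 12.3, 11.63, 11.19 and 11.39 TPM. Here the lowest obese + TT rat was above the highest lean + VEH rat. The log2 difference was -0.47 (SE 0.11) in the untreated and 0.24 (SE 0.07) in the injected cohort, 0.72 (SE 0.15) apart. The means rose from obese (6.25 TPM) over lean (8.68 TPM) and lean + VEH (9.8 TPM) to obese + TT (11.6 TPM), and the only neighbours in this order that overlapped were lean and lean + VEH. The injected groups varied little, with an SD of 0.29 TPM in the lean + VEH and 0.48 TPM in the obese + TT rats.

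In 2 genes, 0.0138% of the 14521 tested in both cohorts, the groups did not overlap in either cohort and pointed in opposite directions. These were Fhod3 and ENSRNOG00000019108, the latter with log2 differences of 0.26 and -0.31. The rule that chose Fhod3 favours such a pattern, so its place there is no separate result. Opposite signs alone were common, at 51% of the 14521 genes. Separate groups were rarer in the larger cohort: every obese rat was above every lean rat in 0.297% of the genes tested (among the 6 genes, in Ephb3) and below in 0.244% (in Fhod3 and Mpzl2). In the injected cohort the obese + TT rats were all above the lean + VEH rats in 2.37% of the genes (in Fhod3) and below in 1.66% (in Bicdl1, Adamtsl4 and Nphs1). Since these contrasts chose the genes, nothing is read from their counts.

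**Figure D1:**
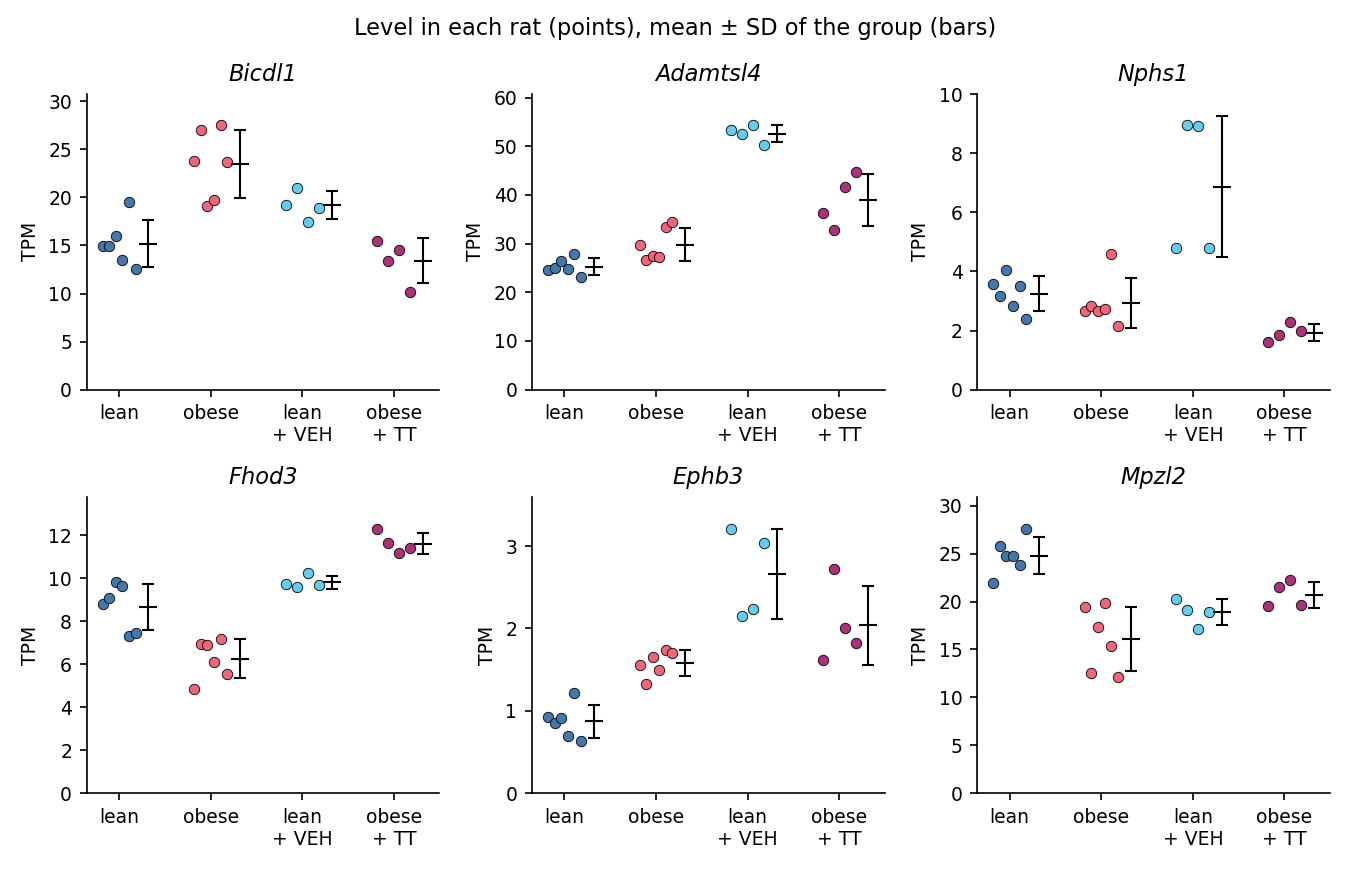
Level of each of the 6 genes in TPM (linear axis from 0) in the 20 rats, 1 panel per gene; points are rats and the bars beside them the group mean ± SD (n = 6 lean, 6 obese, 4 lean + VEH, 4 obese + TT). In Fhod3 the obese rats lie below the lean rats and the obese + TT rats above the lean + VEH rats without overlap. In Nphs1 the 4 lean + VEH rats, at 4.79 to 8.95 TPM as deposited, are above all others, by little over obese rat 11 (4.58 TPM).

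Adamtsl4, the microfibril-associated protein, was the most abundant of the 6, with a mean of 34.8 TPM over the 20 rats, above 83.4% of the genes tested. Lean rats had 23.22 to 27.92 TPM (median 24.9) and obese rats 26.67 to 34.45 TPM (median 28.5), with overlap. The lean + VEH rats stood far above both, with 53.43, 52.59, 54.32 and 50.22 TPM, and the obese + TT rats lay between, with 36.31, 32.85, 41.62 and 44.71 TPM. The obese minus lean difference on the log2 scale went from 0.23 (SE 0.08) in untreated rats to -0.45 (SE 0.09) in injected rats, a difference of -0.68 (SE 0.12). The obese + TT and obese rats overlapped, as did the obese and lean rats, and the lean + VEH rats overlapped with no other group.

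Nphs1, which encodes nephrin, was a low gene, with a mean of 3.61 TPM over all rats. The lean rats had 2.4 to 4.04 TPM (median 3.33) and the obese rats 2.14 to 4.58 TPM (median 2.7), with wide overlap. The lean + VEH rats had 4.8, 8.95, 8.92 and 4.79 TPM, a high and a low pair, and the obese + TT rats had 1.61, 1.86, 2.28 and 1.97 TPM. In TPM as deposited, all lean + VEH rats were thus above every other rat of the series. The margin was small, 4.79 TPM against 4.58 TPM in obese rat 11, and this order of rats was not examined on another scale. On the deposited scale the obese + TT rats were the lowest group, overlapping with the obese rats. The log2 difference between obese and lean was -0.16 (SE 0.17) in the untreated and -1.72 (SE 0.24) in the injected cohort, where the ratio of the mean TPM of obese + TT to lean + VEH rats was 0.281. The lean + VEH mean was 6.87 ± 2.39 TPM (SD, n = 4), and without rat 14 or rat 16 of that group in turn the injected difference was -1.57 or -1.87.

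Ephb3, the ephrin receptor, was the lowest of the 6 genes. Its level was 0.63 to 1.21 TPM in lean rats (median 0.88) and 1.33 to 1.74 TPM in obese rats (median 1.6), without overlap. In the injected cohort the lean + VEH rats had 3.21, 2.15, 2.24 and 3.04 TPM and the obese + TT rats 1.62, 2.72, 2.01 and 1.82 TPM. The obese + TT rats were lower on average, 2.04 ± 0.48 against 2.66 ± 0.54 TPM (SD, n = 4 each), but the groups overlapped. The log2 difference was 0.81 (SE 0.15) without treatment and -0.37 (SE 0.21) in injected rats, which is -1.18 (SE 0.25) between the contrasts. For a gene this low the pseudocount weighs on the value: with 1 in place of 0.1 TPM the untreated difference was 0.47 and the difference between the contrasts -0.73.

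Mpzl2, the epithelial adhesion protein, was highest in the untreated lean rats, at 21.97 to 27.6 TPM (median 24.8), and lowest in the obese rats, at 12.1 to 19.8 TPM (median 16.3). The lean + VEH rats had 20.31, 19.11, 17.1 and 18.89 TPM and the obese + TT rats 19.52, 21.56, 22.2 and 19.63 TPM. All obese rats were below all lean rats, whereas the injected groups overlapped, with means of 18.9 and 20.7 TPM. The log2 difference was -0.64 (SE 0.12) in the untreated cohort and 0.14 (SE 0.08) in the injected cohort, 0.78 (SE 0.17) apart. The positive sign in the injected cohort thus rests on a difference of less than 2 SE.

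**Figure D2:**
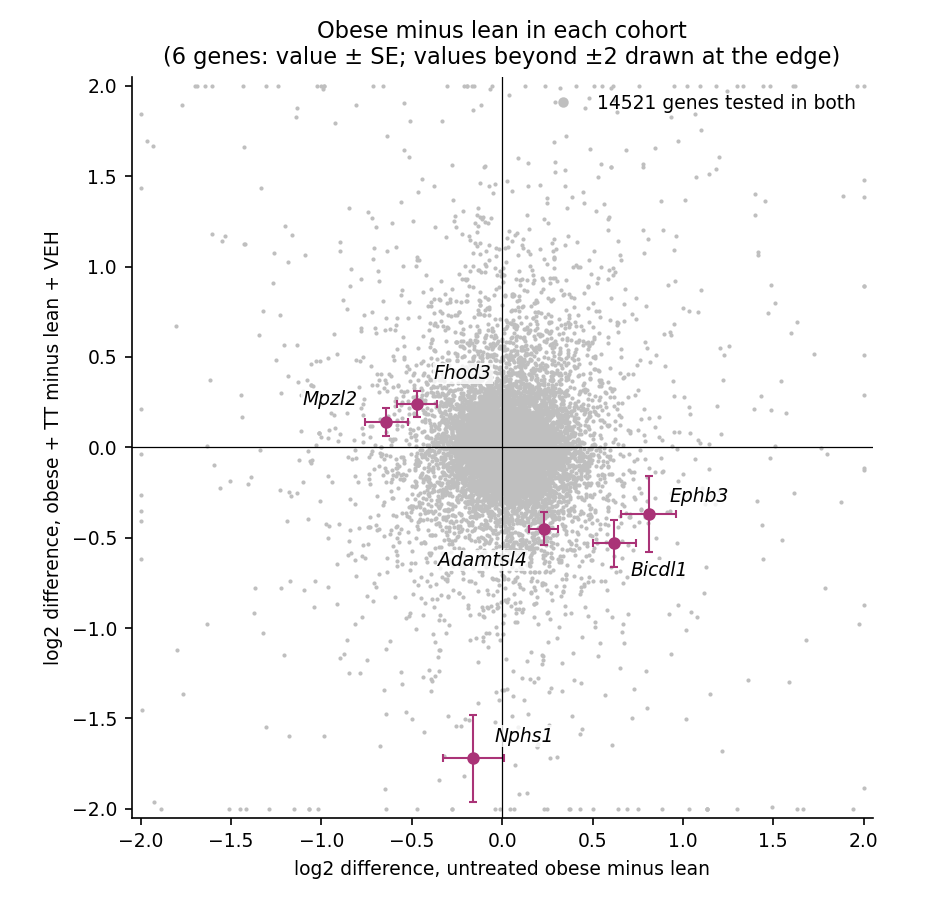
Log2 difference obese minus lean in the untreated cohort (x axis) against the log2 difference obese + TT minus lean + VEH in the injected cohort (y axis) for the 14521 genes tested in both (grey); the 6 genes are marked with their SE. Bicdl1, Adamtsl4 and Ephb3 lie at positive x and negative y, Fhod3 and Mpzl2 at negative x and positive y, and Nphs1 at -0.16 and -1.72.

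Leaving out each rat in turn kept the sign of all 5 contrasts of the 6 genes. The difference between the contrasts was -1.23 to -1.02 for Bicdl1, -0.75 to -0.60 for Adamtsl4, -1.71 to -1.41 for Nphs1, 0.65 to 0.76 for Fhod3, -1.32 to -1.08 for Ephb3 and 0.70 to 0.84 for Mpzl2. Some single-cohort values moved further in proportion. The untreated difference of Nphs1 was -0.30 without obese rat 11 and -0.08 without obese rat 12. Rat 11 had the highest Nphs1 level of its group (4.58 TPM). The injected difference of Mpzl2 was 0.09 without lean + VEH rat 15. That of Ephb3 was -0.51 without obese + TT rat 18 and -0.27 without obese + TT rat 17.

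**Figure D3:**
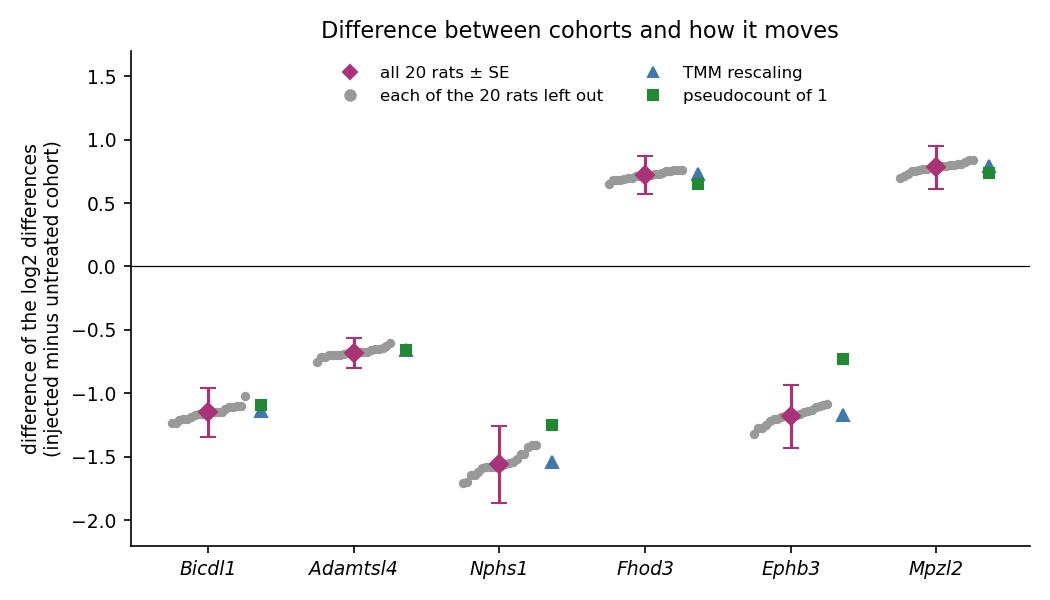
Difference between the log2 contrasts (injected minus untreated cohort) of each gene; diamonds with bars are the value ± SE over 20 rats, grey points the values with 1 rat left out, triangles the value after TMM rescaling and squares the value with a pseudocount of 1 TPM. No point crosses 0, and Ephb3 moves most with the pseudocount, from -1.18 to -0.73.

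The difference between the contrasts can be split into a lean side (lean + VEH against lean) and an obese side (obese + TT against obese). These comparisons cross the cohorts, and most genes tested differed there: 8925 genes (58.2% of those tested) on the lean side and 8941 (58.1%) on the obese side had an adjusted p under 0.05 in limma with Benjamini-Hochberg adjustment. The TPM scale itself was shifted, with a median log2 difference over all genes of 0.24 on the lean side and 0.25 on the obese side. After rescaling by the trimmed mean of M values (TMM), which centres the bulk of the genes, these medians were -0.05 and -0.03. The split of the calls into higher and lower then went from 6394 and 2531 to 4177 and 4879 on the lean side, and from 6418 and 2523 to 4151 and 4657 on the obese side. The levels across cohorts are therefore given with both scales.

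Ephb3 had the greatest difference on the lean side among the 6, 1.51 (1.23 after TMM), and Adamtsl4 and Nphs1 followed with 1.06 and 1.01 (0.75 and 0.71 after TMM). With a pseudocount of 1 TPM the order of the first pair turned, with 0.96 for Ephb3 and 1.03 for Adamtsl4. All lean + VEH rats were above all lean rats in these 3 genes, as in 34% of the genes tested. On the obese side the same genes had only 0.33 for Ephb3 and 0.38 for Adamtsl4, close to the shift of all genes and 0.05 and 0.09 after TMM, and -0.55 (-0.83) for Nphs1. Without obese + TT rat 18, the obese side of Ephb3 was 0.19. For Ephb3 and Adamtsl4 the lean side was thus the larger on both scales, while for Nphs1 it was the larger in TPM as deposited and the smaller after TMM.

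Bicdl1 and Fhod3 moved mainly on the obese side. Bicdl1 was -0.81 there (-1.10 after TMM), with every obese + TT rat below every obese rat as in 11.7% of the genes, and 0.34 on the lean side (0.04 after TMM). Fhod3 was 0.90 on the obese side (0.61 after TMM), with every obese + TT rat above every obese rat as in 34.1% of the genes, and 0.18 on the lean side, which became -0.12 after TMM and -0.08 in FPKM. In Mpzl2 the lean side was -0.39 (-0.70 after TMM), with all lean + VEH rats below all lean rats as in 10.7% of the genes, and the obese side was 0.39 (0.09 after TMM). The difference between the contrasts, which compares rats within each cohort, moved by at most 0.02 with TMM.

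**Figure D4:**
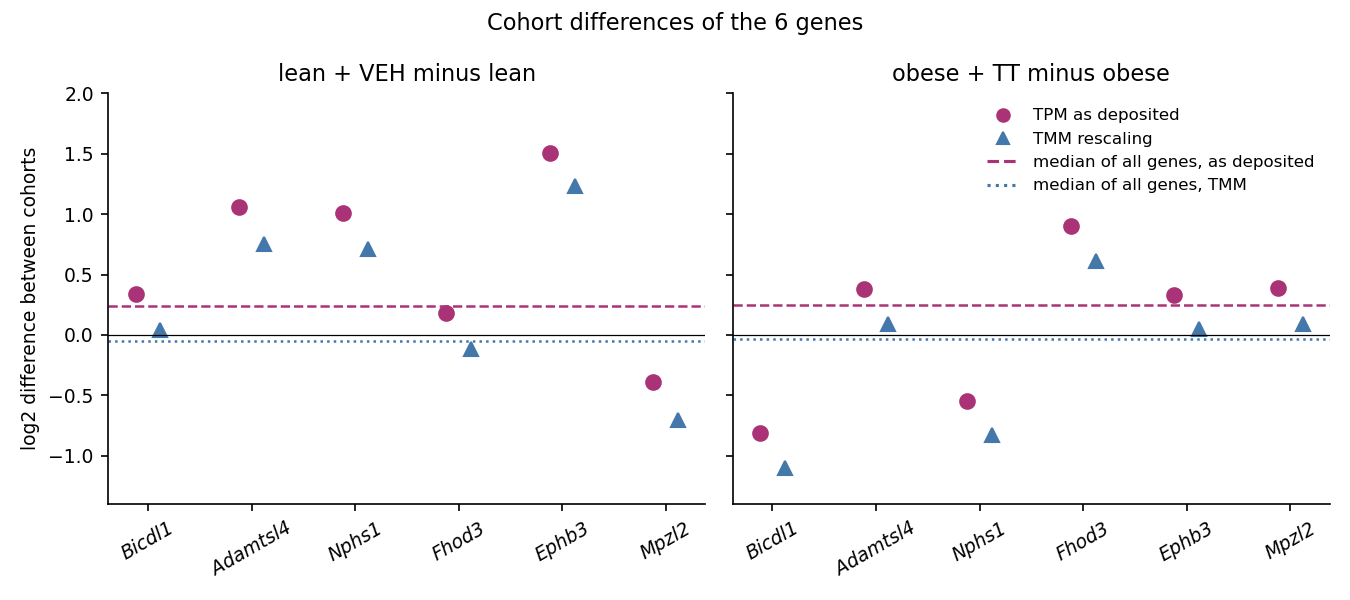
Log2 difference between the cohorts for each of the 6 genes, for lean rats (left) and obese rats (right); circles are TPM as deposited, triangles TMM-rescaled values, and the dashed and dotted lines the medians of all genes on each scale. On the lean side Adamtsl4, Nphs1 and Ephb3 are above the medians on both scales, and on the obese side Bicdl1 and Nphs1 are below them.

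Within a group, the 6 genes did not vary as a unit. After taking off the group means, the Pearson correlation of log2 levels over the 20 rats was between -0.32 and 0.34 for the 15 pairs of genes. With the group means left in, Adamtsl4 and Ephb3 had the highest value of all pairs (0.84) and Bicdl1 and Mpzl2 the lowest (-0.69), as their group means have it. The rats of each correlation come from both cohorts, and the genes of each pair share their libraries.

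Genes with a level pattern like that of each gene were sought among the 2568 with a symbol and a mean of at least 1 TPM, by the Pearson correlation over the 20 rats. Adamtsl4 was closest to AABR07012061.2 (r = 0.97, Spearman rho 0.94), Foxj2 and Tardbp (both r = 0.95), and Ephb3 to Slc39a5 (r = 0.95, rho 0.97), Shpk (0.93) and Rarg (0.91). Fhod3 was closest to AY172581.24 (r = 0.93, rho 0.94), Slc38a3 and Mns1 (both r = 0.90). Lower likeness was found for Mpzl2, with Tmem229b (r = 0.84, rho 0.74), Lmx1a (0.74) and Hr (0.69), for Nphs1, with Ube2v2 (r = 0.77, rho 0.77), LOC103693375 (0.77) and Wdr86 (0.76), and for Bicdl1, with Fgfbp1 (r = 0.72, rho 0.70), Mrpl15 (0.72) and Rps21 (0.71). These values hold the differences between the cohorts, where 58.2% and 58.1% of all genes were called. With the group means taken off, the closest genes changed to Vapb for Bicdl1 (r = 0.77), Col5a1 for Adamtsl4 (0.81), Plekhb1 for Nphs1 (0.78), Arl4a for Fhod3 (0.77), Txndc15 for Ephb3 (0.81) and Id2 for Mpzl2 (0.63), and Tmem229b, with 0.60 for Mpzl2, was the only one of the 18 genes named above to stand among the 3 closest again.

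Partners and relatives of the 6 genes were taken from 7 lists of 109 genes: dynein adaptors, microfibril proteins, slit diaphragm proteins, formins and profilins, Eph receptors, ephrins, and junction proteins of the immunoglobulin superfamily. Only 12 of the 109 could be matched to an identifier, and none of the Eph receptors and ephrins, so that nothing can be said of the ligands or sister receptors of Ephb3. Among the 12, none had an adjusted p under 0.05 in the untreated contrast, the injected contrast or their difference, and 1, 2 and 1 had an unadjusted p under 0.05 in limma, beside 9.66%, 7.43% and 8.36% of all genes. The median difference between the contrasts was -0.15 in the 12 and -0.01 in all genes.

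The 1 relative with an unadjusted p under 0.05 for the difference was Kirrel2, a nephrin-like adhesion protein of the slit diaphragm. It is also the direct neighbour of Nphs1 in the RefSeq gene order, with its start facing away from that of Nphs1. Lean rats had 0.77 to 1.55 TPM of Kirrel2 and obese rats 0.6 to 1.5 TPM. The lean + VEH rats had 1.8, 2.4, 2.3 and 1.65 TPM and the obese + TT rats 0.95, 1.27, 0.97 and 1.72 TPM. In TPM as deposited the lean + VEH rats were above all untreated rats, by a small margin (1.65 against 1.55 TPM). This order of rats was not examined after TMM. Within the injected cohort, 1 obese + TT rat was above the lowest lean + VEH rat. As with Nphs1, rats 14 and 15 were the highest of the series. The obese minus lean difference was 0.00 (SE 0.21) in the untreated and -0.71 (SE 0.23) in the injected cohort, where the adjusted p was 0.588 in limma, and an exact two-sided permutation test gave p = 0.0571. The difference between the contrasts of -0.71 (SE 0.32) had an adjusted p of 0.568 in limma and did not pass. On the lean side Kirrel2 rose by 0.88 (adjusted p = 0.00228 in limma; 0.59 after TMM), while the obese side was 0.17 (adjusted p = 0.576; -0.10 after TMM). Kirrel2 is a low gene too, and with a pseudocount of 1 TPM its lean side was 0.55 and its difference between the contrasts -0.46.

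None of the most abundant relatives of the other genes had an adjusted p under 0.05 in limma between obese and lean rats in either cohort. Kif1c, a kinesin that binds the Bicdl1 family of adaptors, had log2 differences of 0.02 (SE 0.06) and 0.00 (SE 0.06), and Rab6a, a small GTPase of Golgi vesicles, -0.13 (SE 0.09) and -0.07 (SE 0.06). Fhod1, the formin closest to Fhod3, had 0.13 (SE 0.11) and -0.12 (SE 0.12), and Pfn1, the actin-binding profilin, 0.20 (SE 0.07) and -0.01 (SE 0.08). The Pfn1 value in untreated rats had an adjusted p of 0.38 in limma, and p = 0.0152 in an exact two-sided permutation test. Among the microfibril proteins, Ltbp3 had 0.11 (SE 0.08) and 0.17 (SE 0.08) and Ltbp4 0.33 (SE 0.17) and 0.13 (SE 0.48). The junction protein Jam3 had -0.07 (SE 0.09) and 0.13 (SE 0.07), and Nectin1 -0.15 (SE 0.15) and -0.44 (SE 0.18). The slit diaphragm and cytoskeleton protein Actn4 had 0.05 (SE 0.11) and -0.12 (SE 0.06).

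Across the cohorts most of the 12 relatives moved, as most genes did. On the lean side 9 were higher and 2 lower at an adjusted p under 0.05 in limma, beside 41.7% and 16.5% of all genes, and on the obese side also 9 and 2, beside 41.7% and 16.4%. After TMM these counts were 8 and 3, beside 27.3% and 31.8% of all genes, and 5 and 2, beside 27% and 30.3%. Ltbp4, which binds latent TGF-beta in the matrix, fell most of the 12: from 3.1 ± 0.435 TPM in lean (SD, n = 6) to 0.397 ± 0.255 TPM in lean + VEH rats (SD, n = 4), a log2 difference of -2.88 (adjusted p = 2.06e-05, limma). The obese side of Ltbp4 was -3.08 (adjusted p = 1.06e-06, limma).

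For each of the 6 genes, the nearest gene with a symbol and a mean of at least 0.1 TPM on either side was examined in the RefSeq order, 12 in all. None had an adjusted p under 0.05 for the difference between the contrasts in limma. An unadjusted p under 0.05 was found for 3 of the 12, beside 8.36% of all genes tested. These were Kirrel2, Tra2b near Ephb3 (-0.26, SE 0.10, adjusted p = 0.512) and Tagln near Mpzl2 (-1.13, SE 0.27, adjusted p = 0.248). Except for Kirrel2, other protein-coding genes lay between them and the gene, from 1 for Ensa beside Adamtsl4 to 31 for Nrep beside Fhod3. The remaining neighbours, Hspb8, Rplp0, Ensa, Mrps21, Hspb6, Galnt1, Nrep, Eif4g1 and Atp5mg, had differences between -0.21 and 0.32. The direction of Tagln is opposite to that of Mpzl2.

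Tagln marks smooth muscle and mural cells, and most markers of vessels with an identifier differed strongly between the cohorts. Of the 7 mural markers listed, 3 had an identifier (Myh11, Tagln and Rgs5), and none was at 0 in any rat. Their sum was 147.3 to 192.3 TPM in lean rats (median 158.4) and 142.2 to 244.0 TPM in obese rats (median 176.1). In the injected cohort it was 21.7, 13.8, 13.7 and 17.7 TPM in the lean + VEH rats and 10.2, 11.6, 9.7 and 11.0 TPM in the obese + TT rats. The mean was 12.6-fold lower in the injected than in the untreated cohort. Tagln and Rgs5 fell on both sides, with log2 differences of -3.96 and -4.47 on the lean and -5.09 and -4.59 on the obese side. Myh11 was 8.5 TPM in lean and 7.7 TPM in lean + VEH rats (-0.14, adjusted p = 0.39 in limma; -0.44 and 0.00934 after TMM), and fell from 9.92 TPM in obese to 4.56 TPM in obese + TT rats (-1.07, adjusted p = 0.000289; -1.36 after TMM). Within the injected cohort all obese + TT rats were below all lean + VEH rats (log2 ratio of the means -0.65), against 0.16 for obese over lean rats, which is the direction seen for Bicdl1, Adamtsl4 and Ephb3. Myh11, a smooth muscle myosin, had 0.19 and -0.74 (difference adjusted p = 0.285 in limma), Tagln 0.33 and -0.79, and Rgs5, the most abundant of the 3, -0.01 and -0.13.

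Plvap, the only 1 of 7 endothelial markers with an identifier, was 9.62-fold lower in the injected cohort, at 10.6, 2.9, 1.68 and 5.85 TPM in the lean + VEH rats and 4.39, 4.03, 3.46 and 6.74 TPM in the obese + TT rats, against 40 to 60.3 TPM in the 12 untreated rats. Among 4 of 9 stromal markers with an identifier, Dcn fell from 92.5 to 10.9 TPM on the lean side and Col1a1 from 4.92 to 0.492 TPM. Pdgfra went there from 25.4 to 65.1 TPM and Igf2 from 1410 to 1962 TPM. The log2 difference was 1.31 for Pdgfra (1.01 after TMM) and 0.48 for Igf2 (0.17 after TMM). The sum of the 12 epithelial markers, nearly all of it Ttr, was 320600 to 401214 TPM in untreated and 271450 to 317749 TPM in injected rats, so the tissue was choroid plexus in all 20. Most of the other epithelial markers went the opposite way from the sum. At an adjusted p under 0.05 in limma, 10 of the 12 were higher and 0 lower on the lean side. Of all genes, 41.7% were higher and 16.5% lower there. On the obese side 8 were higher and 1 lower, beside 41.7% and 16.4% of all genes. After TMM the lean side had 7 and 1, beside 27.3% and 31.8%, and the obese side 7 and 0, beside 27% and 30.3%. The potassium channel gene Kcnj13, for example, rose from 622.6 TPM in lean to 1296 TPM in lean + VEH rats. Ttr had -0.23 on the lean side (adjusted p = 0.378 in limma) and was the 1 marker called lower on the obese side. There it had -0.35 (adjusted p = 0.0417 in limma), and a larger -0.64 after TMM (adjusted p = 0.0611 in limma). Between obese and lean rats no epithelial marker had an adjusted p under 0.05 in limma in either cohort. Prlr had log2 differences of -0.11 in the untreated and -0.63 in the injected cohort (adjusted p = 0.875 and 0.127 in limma). Slc5a5 had 0.10 and 0.34 (adjusted p = 0.805 and 0.385 in limma). In both genes the injected groups did not overlap, with obese + TT rats lower for Prlr and higher for Slc5a5. The part of these markers in the values of the 6 genes was not tested.

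Of the erythroid markers, none had an adjusted p under 0.05 in limma between obese and lean rats in either cohort, and the sums overlapped. The low marker Slc4a1 did not overlap, with 0.09 to 0.29 TPM in lean and 0.3 to 0.73 TPM in obese rats. In the injected cohort Slc4a1 was 0.13 to 0.34 TPM in lean + VEH and 0.53 to 0.96 TPM in obese + TT rats. The sum (4 of 6 markers, led by Hba-a1) was 3105 to 5471 TPM in lean and 4052 to 7019 TPM in obese rats. It was 5768, 2726, 3233 and 2168 TPM in lean + VEH and 6965, 4799, 8388 and 5799 TPM in obese + TT rats, with log2 ratios of the means of 0.38 and 0.90. The ependymal sum (3 of 7 markers, led by Cfap126) had log2 ratios of 0.00 and 0.15, the meningeal sum (2 of 7, led by Ptgds) -0.12 and -0.09, the single neuronal marker Map2 -0.12 and -0.13, and the single astrocyte marker Gja1 -0.04 and 0.74. Across the cohorts Map2 rose on the lean and the obese side (1.44 and 1.47, adjusted p = 2.07e-07 and 5.15e-05 in limma) and Gja1 fell (-1.74 and -0.90, adjusted p = 5.94e-06 and 0.000723), and all 4 were called after TMM as well. Gja1 had a positive difference between the contrasts like Fhod3 and Mpzl2 (0.84, adjusted p = 0.389 in limma). Its level was 1.21 to 2.47 TPM in lean + VEH and 2.94 to 3.39 TPM in obese + TT rats, without overlap. No macrophage or oligodendrocyte marker of the lists had an identifier.

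**Figure D5:**
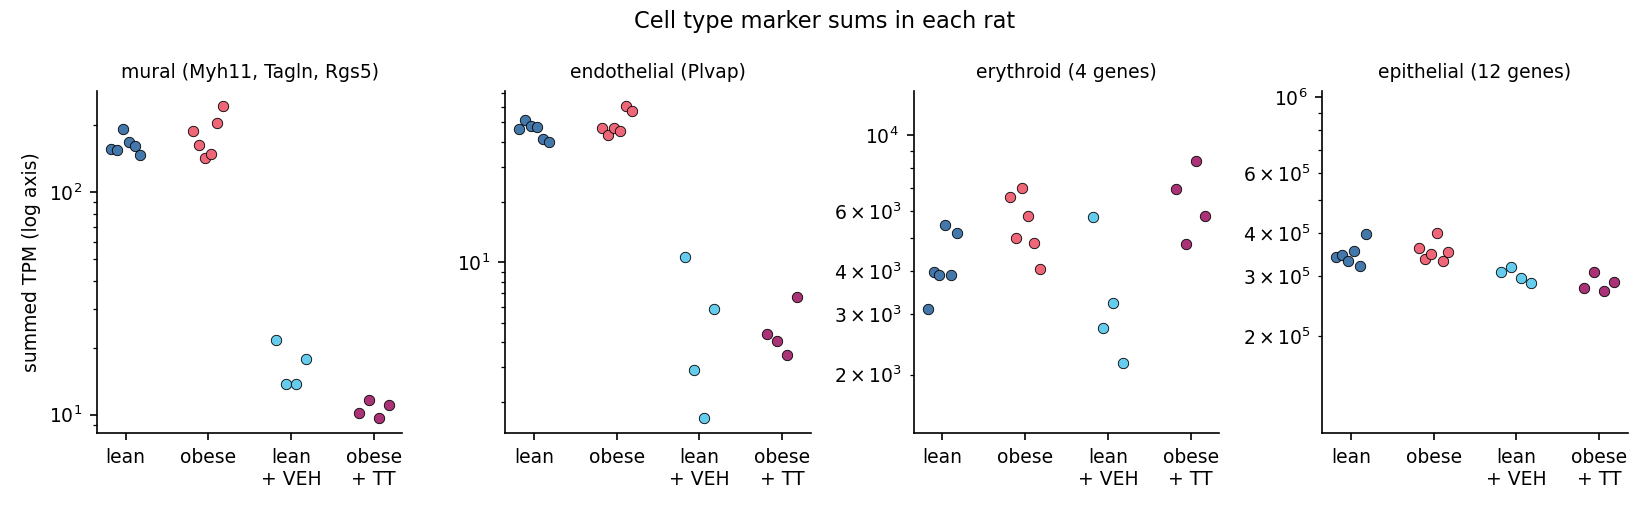
Summed TPM (log axis) of cell type markers in each of the 20 rats: mural cells (3 genes), endothelium (Plvap), erythroid cells (4 genes) and choroid plexus epithelium (12 genes). Mural and endothelial markers are lower in all 8 injected than in all 12 untreated rats, and in the mural sum the obese + TT rats lie below the lean + VEH rats.

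A level above 0 TPM was listed for 15906 to 16343 genes per untreated rat and 14968 to 16860 per injected rat, fewest in lean + VEH rat 14. Ttr alone took 31.2 to 39.3% of the TPM in untreated and 25.8 to 30.5% in injected rats. With Ttr left out of the TPM the difference between the contrasts was -1.20 for Bicdl1, -0.72 for Adamtsl4, -1.62 for Nphs1, 0.67 for Fhod3, -1.25 for Ephb3 and 0.73 for Mpzl2. On that scale 10 genes had an adjusted p under 0.05 for the difference in limma, Bicdl1, Adamtsl4 and Nphs1 among them, which is no independent test of genes chosen by it. The number of reads behind a TPM is unknown, so for Ephb3 and Nphs1, whose mean level was above that of only 27.3% and 37.3% of the genes tested, no counting error can be given.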

How the data were processed

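Choroid plexus RNA of 20 rats was sequenced, 1 library each. Per the labels and the submitters' processing notes, the authors mapped reads to Rnor_6.0 with STAR 2.7.9a and list RSEM 1.3.3 and DESeq2 3.16. The study's DESeq2 comparison used counts, which were not analysed here. The authors deposited TPM and FPKM for 32883 Ensembl genes per rat, with 2 decimals. Which program gave them is not given in the sources used here. The labels give a nominal output of 12 Gb per library. Neither unit keeps read counts, so the reads behind a value are unknown.

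Symbols came from the gene lists of the study (2616 identifiers). The members and gene lists were chosen with earlier results of these data known. limma 3.58.1 (R 4.3.3) was fitted to log2(TPM + 0.1) of all genes whose mean reached 0.1 TPM over the libraries compared, with a trend, and with Benjamini-Hochberg adjustment over all genes. A fold change is on this scale and understates the change of low genes. Each contrast used its own groups, and the difference between contrasts used all 20 rats. The listed relatives were also compared between obese and lean rats of each cohort by an exact two-sided permutation test. Its smallest p is 0.0286 for 4 against 4 and 0.00216 for 6 against 6. Each library stands for 1 numbered rat, so p-values measure the spread between rats.

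Named were the 6 genes, relatives with an unadjusted p under 0.05 in the difference or among the 2 most abundant of their list, the nearest neighbours, the 3 most like genes, and cell type markers. Motifs were searched in RefSeq promoters (GRCr8), with no coordinates carried between builds. TMM trimmed 30% of the M and 5% of the A values at each end. Alternatives were the pseudocount, the minimum, the trend, the robust option, TPM without Ttr, TMM, 1 fit of all libraries, each rat left out and, chosen after seeing the data, FPKM and the scalings of the markers. limma was tested on simulated data. Duplicate libraries were sought over 42 pairs of rats within groups, where identical values made up 1.92% of genes or less. Figures were made with Python 3.11.15 and matplotlib 3.10.9.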

Additional observations from a re-analysis of the deposited data

Results flagged for a closer look

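The level of each of 16 genes (the 6 and 10 relatives named) was examined in 64 groups of 4 or 6 rats. Of these, 2 had a rat whose gap to the next, divided by the range, was above Dixon's limit, where chance gives about 1 in 20 groups, or 3.2 of 64. Obese rat 11 had 4.58 TPM of Nphs1, while the other 5 obese rats had 2.14 to 2.82 TPM. Lean + VEH rat 15 had 123.19 TPM of Jam3, and the other 3 had 141.39 to 144.44 TPM.

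In Fhod3 all obese rats were below all lean rats and all obese + TT rats above all lean + VEH rats, with a difference of 0.72 on the log2 scale between the contrasts. Because this difference chose the gene, it was not tested.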

How the results depend on the processing

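The 6 genes kept the sign of the difference between the contrasts in all 168 values of the alternatives, and 167 of these moved by less than the SD within groups. The exception was Ephb3 with a pseudocount of 1 TPM (-0.73). Over all 5 comparisons, 601 of 624 values moved by less than that SD, 21 moved further and 2 reversed, both for Fhod3 in lean + VEH against lean (0.18), which was -0.12 after TMM and -0.08 in FPKM. The cause was not tested. No call of Kirrel2 changed under the alternatives run.

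The counts of genes with an adjusted p under 0.05 were less stable. For obese against lean the count of 0 became 1 with TMM, 1 in FPKM and 3 in a fit of all 20 libraries, and leaving out a rat gave 0 to 1. For obese + TT against lean + VEH it became 6 in the fit of all libraries, and leaving out a rat gave 0 to 25, the highest without lean + VEH rat 13. The difference between the contrasts had 1 gene with a minimum mean of 1 TPM, 1 with the robust option, 10 with TPM without Ttr, 2 with TMM and 2 in FPKM, and leaving out a rat gave 0 to 14, again highest without rat 13. Of the 6 genes, Bicdl1 was among those called with each of these 5 settings, Adamtsl4 with TPM without Ttr, TMM and FPKM, and Nphs1 with TPM without Ttr, while the fit of all 20 libraries called Mpzl2 in untreated and Nphs1 in injected rats, and the latter was also called without rat 13. Leaving out 1 of the 20 rats called the difference of Bicdl1 in 6 fits, of Adamtsl4 in 1 and of Nphs1 in 1. These calls describe the genes and do not test them. Lean + VEH against lean had 8206 to 8822 genes and obese + TT against obese 8244 to 8908 when a rat was left out. No paired analysis was possible because the rats are numbered 1 to 20 and the groups share no replicate number.

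With 4 or 6 rats a group, unknown depth, and symbols for 2616 of 32883 identifiers, relatives of the 6 genes are covered only in part. Testosterone cannot be told apart from obesity within the injected cohort, nor from injection and cohort in obese + TT against obese.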
